A study of Drosophila melanogaster with 16 samples.

Results

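The Dpr proteins (defective proboscis extension response) and the DIP proteins (Dpr-interacting proteins) of Drosophila were examined in motor neurons (MNs) of 3 ages. The genes were taken by name: every gene whose current symbol is dpr followed by a number, or starts with DIP-, which gave 32 genes, 21 Dpr and 11 DIP. Of these, 30 (20 Dpr and 10 DIP) were measured, through 66 of the 45366 features of a custom Agilent array, among 12946 genes measured in all. No feature was assigned to dpr21 or DIP-lambda, and both were not analysed here.

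Each array held the doubly amplified, Cy3-labeled cDNA of 1 pool of GFP-positive cells, sorted by flow cytometry from the thoracic ganglion of 5 female flies. There were 5 pools from flies of 7 days, 5 pools from flies of 35 days and 6 pools from flies of 45 days after eclosion. All flies carried the D42-Gal4 driver with GFP, in the w1118 background, and were aged normally under a light/dark cycle with no other treatment, so the ages differ in no allele or agent. What was sorted is what the D42 driver labels, and the pools of different ages came from different flies.

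Dpr and DIP proteins are small cell-surface proteins of the immunoglobulin superfamily. A Dpr on 1 cell binds its DIP partners on another, and the many selective pairs form a recognition code by which neurons find synaptic partners during development. At the fly neuromuscular junction (NMJ), the best-known pairs join DIP-alpha of MNs to dpr10 and dpr6, and DIP-gamma to dpr11. The study profiled MNs for genes whose expression differs with age, and the comparisons below ask this of the network.

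Signal is given on the log2 scale relative to the 75th percentile of the features of the same array, so that 0 is the 75th percentile and 1 unit is a 2-fold difference. Features assigned to 1 gene were averaged to give its level, and 11 of the 30 genes had 1 feature while dpr12 had 7. Differences are the older age minus the younger. Ages were compared with limma, with Benjamini-Hochberg adjustment over all genes (or all features), and a gene was called at an adjusted p under 0.05 and more than 2-fold. The 16 arrays lay on 2 slides, each of which held all 3 ages. Within the slides, all 7-day arrays lay in row 2 and all 35-day arrays in row 1, so a difference between 35 and 7 days cannot be told apart from the row. The 45-day arrays were split, with replicates 1, 4 and 5 in row 1 and the other 3 in row 2.

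Between 56.7% and 67.1% of the spots of an array were well above background, and no spot of a member was saturated. The 45-day replicate 4 had the lowest share. The label was checked against marker genes. The neuronal marker elav averaged 2.08 ± 0.19 at 7 days, 2.21 ± 0.15 at 35 days and 2.20 ± 0.19 at 45 days (SD, n = 5, 5 and 6), and all 10 neuronal markers were above background on every array. The summed linear signal of these 10, in units of the 75th percentile, was 24.3 to 30.5 at 7 days, 21.0 to 26.4 at 35 days and 24.0 to 30.2 at 45 days. Of them, 7 were lower at 35 than at 7 days, with a median difference of -0.45, and 3 had an unadjusted p under 0.05 there (brp, Syt1 and Rdl, all lower), with none called. Over all genes the median there was -0.34, with 8752 of 12946 differences negative. Among all genes, 24% had an unadjusted p under 0.05 at 35 against 7 days and 9.07% at 45 against 7 days. Of 9 MN markers, 8 were measured, and they summed to 33.6 to 46.9 at 7 days, 32.7 to 47.9 at 35 days and 29.6 to 41.0 at 45 days. At 45 against 7 days, zfh1 (-1.01) and exex (1.52) had an unadjusted p under 0.05 and opposite signs, and exex had one at 35 against 7 days too (1.59). The MN marker eve was above background on 6 arrays. Markers of other cells were present too. The summed signal of 8 glial markers was 29.7 to 52.0 at 7 days, 23.5 to 41.6 at 35 days and 18.2 to 35.3 at 45 days. At 45 against 7 days, 6 of the 8 were lower and 2 higher, with a median difference of -0.38. Of the 8, 3 had an unadjusted p under 0.05 there, all lower, and none was called. The summed signal of 8 muscle markers was 1.13 to 6.86 at 7 days, 2.65 to 6.85 at 35 days and 4.41 to 15.1 at 45 days. The 7 fat body markers summed to 8.71 to 20.3 at 7 days, 11.3 to 23.1 at 35 days and 12.0 to 29.6 at 45 days. Of these 7, 5 were higher at 45 than at 7 days, with 2 unadjusted p under 0.05 and no call. The median difference of the 7 was 1.01, against -0.21 over all genes. The 5 trachea markers summed to 0.44 to 1.24, 0.60 to 0.97 and 0.41 to 1.22 at the 3 ages in that order. Hemocyte markers summed to at most 0.33 on any array, and He was above background on none. The part of other cells in the values below was not tested. In pools of sorted cells, fewer cells that express a gene and less RNA of it per cell cannot be told apart.

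Most of the network was detected. For 28 of the 30 genes (93.3%), at least 1 feature was well above background on all 16 arrays, against 53.0% of all genes measured. For 15 of the 30, every feature was. DIP-eta and DIP-iota were the exceptions, and their best features were above background on 7 and 8 arrays. Of the 66 features, 45 were above background on every array, 20 on some, and 1 feature of DIP-zeta on none.

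By the brightest feature of each gene, the highest signals came from Dpr genes. Ordered by the brightest feature of each gene, averaged over the 16 arrays, dpr12 (4.02) and dpr14 (3.70) came first, followed by dpr9 (2.97), dpr7 (2.95), dpr4 (2.42) and dpr18 (2.35). The first DIP was DIP-alpha, the MN receptor of dpr6 and dpr10, in 7th place at 2.09, with DIP-theta at 2.01, DIP-gamma at 1.31, DIP-delta at 0.87 and DIP-kappa at 0.77. The dim end held DIP-zeta (-0.42), DIP-beta (-1.88), DIP-epsilon (-2.13), dpr16 (-2.55), DIP-iota (-6.65) and DIP-eta (-7.65). This is an order of signal and not of transcript number, because probes hybridize with different strength. It also depends on taking the brightest feature. Averaged over all features, dpr12 was at -3.81, dpr14 at -1.35, dpr9 at -4.56, dpr4 at -3.38 and dpr7 at 2.02. All of these then lay below DIP-alpha at 2.09, while dpr18 stayed at 2.35. In 24 of the 29 pairs of neighbours, the levels lay closer together than the larger of their within-age SDs, so most neighbours have no order.

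**Figure D1:**
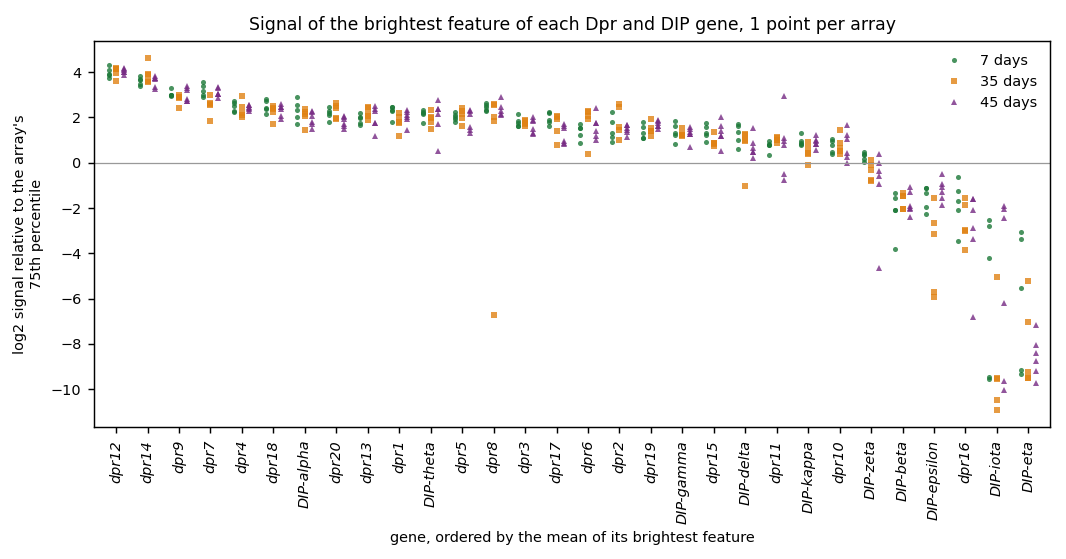
log2 signal of the brightest feature of each of the 30 Dpr and DIP genes (y axis, relative to the 75th percentile of the array) on each array, with genes ordered by mean signal on the x axis. Points are arrays of 7, 35 and 45 days, and the arrays of any pair of ages overlap for every gene shown. The order runs from dpr12 at 4.02 to DIP-eta at -7.65.

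The replicates of an age lay close for most of the brightest features. Their median within-age SD was 0.37 over the 28 genes detected on every array, with a range of 0.19 to 2.33, against 0.47 over all genes with such a feature. The highest SD was that of dpr8. The gene means, which include features near background, had a median SD of 0.56, against 0.76 over all genes.

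Across ages, no Dpr or DIP gene and none of their 66 features passed the threshold in any comparison. Among all genes, the share called was 0% at 45 against 7 days, 0.1% at 35 against 7 days, 0.00772% at 45 against 35 days and 0.0695% in limma's F test over the 3 ages. Among all features it was 0.375%, 0.097%, 0.0154% and 0.582% in the same order. The methods' t-test on the same values, with the same adjustment and fold, also called no member. At shares this low, no call among 30 genes or 66 features does not set the network apart from the other genes.

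With no adjustment, the counts were as follows. At 45 against 7 days, 3 of the 30 genes had p under 0.05 (dpr4, dpr12 and dpr17, all lower at 45 days), where 9.07% of all genes did. At 35 against 7 days, 5 did (dpr7, dpr9, dpr4, dpr12 and DIP-zeta, all lower at 35 days), against 24% of all genes. At 45 against 35 days, 4 did (dpr7, dpr9 and DIP-iota higher at 45 days, dpr20 lower), against 6.98% of all genes. DIP-iota was above background on only 1 of the 5 35-day arrays, so the size of its difference is not measured. Over the 3 ages, 4 did (dpr7, dpr4, dpr9 and dpr12), against 18.1% of all genes.

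The network's median differences lay near those of all genes. At 45 against 7 days, 9 of the 30 differences were positive and 21 negative, with a median of -0.15, against -0.21 over all genes, of which 4411 were positive and 8535 negative. At 35 against 7 days, 9 were positive and 21 negative, with a median of -0.39, against -0.34 over all genes, of which 4194 were positive and 8752 negative. At 45 against 35 days, 14 were positive and 16 negative, with a median of -0.01. Over all genes the median there was 0.15, with 7679 positive and 5267 negative, so the balance of signs differed. The members' median signal varied between arrays of one age with an SD of 0.31. Scaling arrays by their median in place of the 75th percentile moved the median of all genes at 45 against 7 days to 0.12, and that of the network to 0.17.

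**Figure D2:**
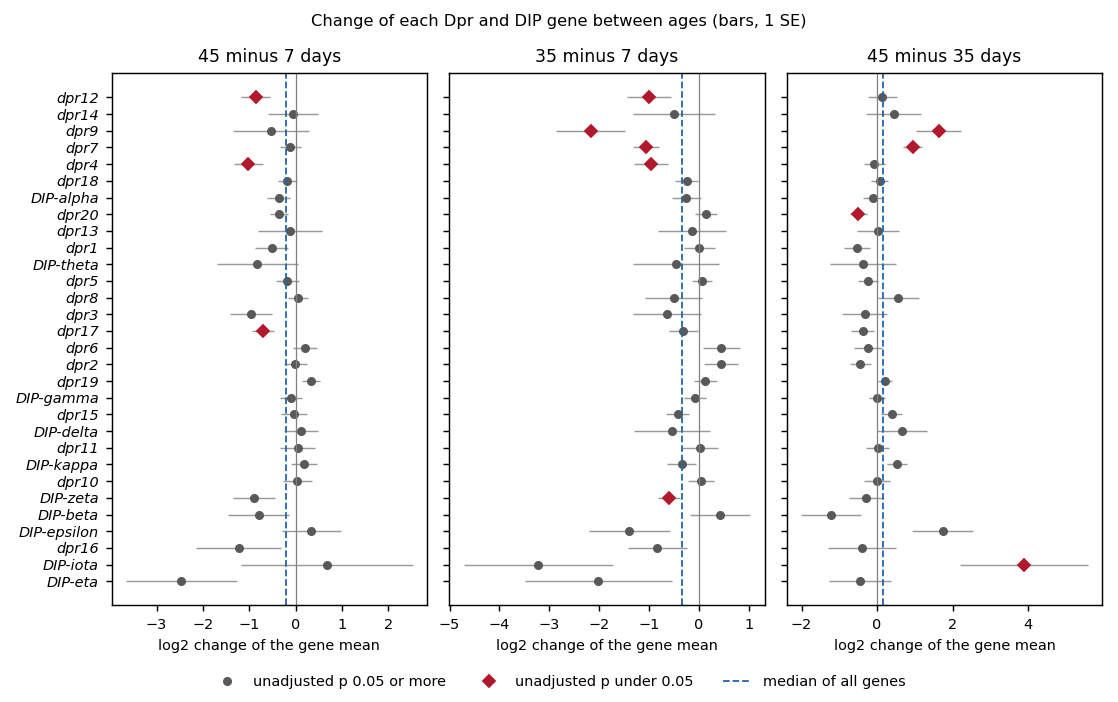
log2 difference of each Dpr and DIP gene (x axis) between 45 and 7 days, 35 and 7 days, and 45 and 35 days, with genes down the page in order of signal. Bars are 1 SE, diamonds mark an unadjusted p under 0.05 and the dashed line is the median of all genes. The network's medians are -0.15, -0.39 and -0.01.

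Among all members, dpr7, whose protein binds DIPs of the DIP-eta, DIP-theta and DIP-iota group, had the lowest p over the 3 ages. It was low at 35 days. The gene mean was 2.70, 2.63, 2.53, 2.17 and 1.93 on the 7-day arrays and 1.26, 1.43, 1.83, 1.43 and 0.71 on the 35-day arrays. The 45-day arrays had a lowest value of 1.85, a median of 2.23 and a highest value of 2.73. Every 35-day array was thus below every array of the other ages, while the 45-day and 7-day arrays overlapped.

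At 35 against 7 days the dpr7 difference was -1.06 ± 0.26 (SE; 95% interval -1.64 to -0.48), with limma p = 0.00236, adjusted p = 0.113 and an exact two-sided permutation p of 0.00794, the smallest that 5 against 5 arrays can give. At 45 against 35 days it was 0.94 ± 0.25 (SE), with limma adjusted p = 0.531 and an exact permutation p of 0.00216, the smallest that 6 against 5 arrays can give. At 45 against 7 days it was -0.12 ± 0.23 (SE; limma adjusted p = 0.866, exact permutation p = 0.545). The first 2 comparisons share the 35-day arrays and are not independent. In limma's F test over the 3 ages the adjusted p was 0.195.

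Arrays without overlap between ages occurred in 2 of the 30 genes at 35 against 7 days (dpr7 and DIP-zeta), against 4.39% of all genes. They occurred in 1 at 45 against 35 days (dpr7), against 0.589%, and in none at 45 against 7 days, against 1.2%. Of the 66 features, 1 of dpr7 had no overlap at 35 against 7 days, where 4.37% of all features had none, and another of dpr7 at 45 against 35 days, where 0.913% had none. At 45 against 7 days no member feature was of this kind, against 1.37%.

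Within the slides, dpr7 at 35 against 7 days differed by -1.15 on slide 1 and -1.14 on slide 2. At 45 against 35 days it differed by 0.71 on slide 1 and 1.26 on slide 2. Within row 1, where all 35-day arrays lay, the 3 45-day arrays (2.31, 2.16 and 2.10) were above all 35-day arrays, with a difference of 0.86. No array of 7 days lay in that row. Without 35-day replicate 4, dpr7 passed the threshold at 35 against 7 days (-1.08, limma adjusted p = 0.0398), and leaving out any other array kept it between -1.18 and -0.90 with no call.

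All 5 features of dpr7 were above background on every array, and all 5 name the same transcript. Each was lower at 35 than at 7 days, by log2 differences of -0.68, -0.70, -0.55, -1.53 and -1.83 in order of falling signal. At 45 against 35 days each was higher, with differences of 0.58, 0.55, 0.62, 1.42 and 1.54. The dimmer features differed more, and the 5 features are not separate samples. The dimmest had a limma adjusted p of 0.0637 at 35 against 7 days, the lowest among member features with signal above background on all arrays.

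**Figure D3:**
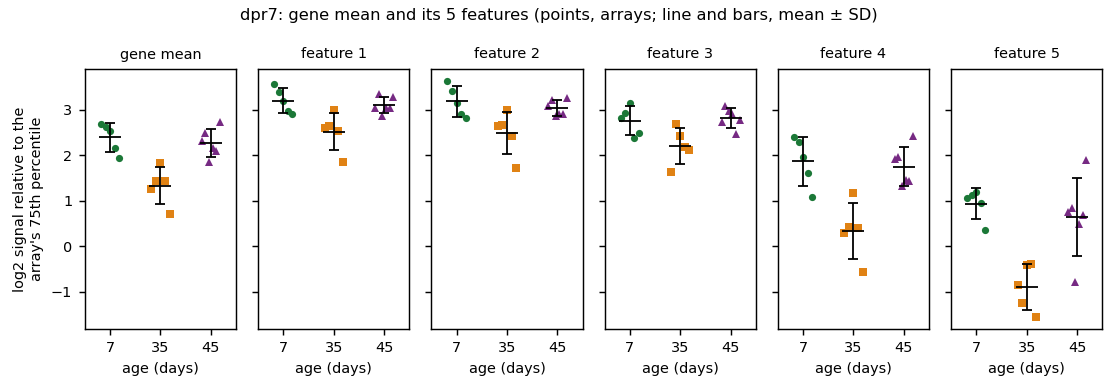
log2 signal of dpr7 (y axis, relative to the 75th percentile of the array) by age in days (x axis), for the gene mean and for its 5 features in order of falling mean signal. Points are arrays and bars are mean ± SD. The gene mean lies between 1.93 and 2.70 on the 7-day arrays, between 0.71 and 1.83 on the 35-day arrays and between 1.85 and 2.73 on the 45-day arrays.

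Another partner of the same DIPs is dpr4. It had 3 features, and its gene mean was lower at both older ages. It had -2.39, -2.87, -3.73, -2.32 and -2.21 at 7 days and -3.92, -3.48, -3.29, -3.33 and -4.26 at 35 days. At 45 days it had a lowest value of -4.35, a median of -3.70 and a highest value of -3.12. The groups overlapped through 7-day replicate 3.

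The dpr4 difference was -1.02 ± 0.32 at 45 against 7 days (SE; limma adjusted p = 0.417, exact permutation p = 0.0195) and -0.95 ± 0.34 at 35 against 7 days (limma adjusted p = 0.13, exact permutation p = 0.0317). These differences rest mostly on 1 feature. The 2 features above background on all arrays differed by -0.04 and -0.70 at 45 against 7 days, and by -0.13 and 0.20 at 35 against 7 days, where they thus share no sign. The remaining feature, above background on 5 arrays, differed by -1.45 and -2.05 in the same order, so the size of the gene mean's difference is not measured. That feature was left out as an outlier spot on 7-day replicate 5, and without the replicate the difference at 45 against 7 days was -0.90.

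For dpr9, a partner of DIP-beta, the gene mean likewise differed more than the brightest feature. The gene mean was -3.55, -5.27, -2.04, -2.19 and -5.38 at 7 days and -5.96, -6.28, -6.03, -5.13 and -5.85 at 35 days. The 45-day values ran from -5.44 through a median of -4.52 to -1.95. The 35-day arrays lay low and close together, and the other ages spread widely.

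For dpr9 the difference was -2.17 ± 0.69 at 35 against 7 days (SE; limma adjusted p = 0.113, exact permutation p = 0.0238) and 1.64 ± 0.60 at 45 against 35 days (limma adjusted p = 0.531, exact permutation p = 0.0216). These values set signals below background against signals above it, and so do not measure a fold. With signals below background floored, the difference at 35 against 7 days was -1.49 (limma adjusted p = 0.0427), and with normexp background correction it was -0.62. Its brightest feature differed by -0.23 at 35 against 7 days and by 0.21 at 45 against 35 days. The other 2 features were not well above background on any 35-day array, so no fold is measured there. Against floored 35-day signals, their 7-day means were 2.31-fold and 2.59-fold brighter. For each dimmer array, the ratios used the lowest signal well above background, or the feature's own signal if higher. Only 2 and 3 of the 5 7-day arrays were above background, and the means include the others. The ratios are thus not strict lower bounds, and neither feature was called (limma adjusted p of the unfloored values = 0.108 and 0.0921).

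Of all members, dpr12, the ligand of DIP-delta, had the most features and the brightest one. The brightest feature differed by 0.07 at 45 against 7 days and by 0.03 at 35 against 7 days. These were the highest differences among the 4 features above background on every array. The lowest among them were -1.32 and -1.03 in the same order. The gene mean, over 7 features of which 4 were above background on every array, was -4.12, -3.01, -3.38, -2.85 and -2.51 at 7 days and -5.29, -4.69, -3.41, -3.41 and -4.11 at 35 days. At 45 days it ran from -4.49 through a median of -4.09 to -3.53. The older ages were lower on most arrays but overlapped 7 days.

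The dpr12 difference of the gene mean was -0.86 ± 0.32 at 45 against 7 days (SE; limma adjusted p = 0.491, exact permutation p = 0.0281) and -1.01 ± 0.44 at 35 against 7 days (limma adjusted p = 0.2, exact permutation p = 0.0556). One feature was above background on 4 of 5 arrays at 7 days and on no array at 45 days. Against 45-day signals floored as for dpr9, its 7-day mean was 3.14-fold brighter (limma adjusted p of the unfloored values = 0.261). That mean includes the 7-day array not above background, so the ratio is not a strict lower bound. The receptor DIP-delta differed by 0.13 ± 0.37 at 45 against 7 days (SE; limma adjusted p = 0.918). That is a gene mean, and its 2 features above background on all arrays differed by -0.57 and 0.73.

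The 45 member features above background on all arrays and the other 21 differ in detection, not strictly in brightness. The 21 include the brightest feature of dpr8, which was above background on 15 arrays and left out as an outlier spot on the other, and the 45 include features of DIP-epsilon and dpr16 with mean signals of -2.13 and -2.55. A feature that is low at 1 age falls among the 21 for that reason, so their differences are not set against those of the 45. The median within-age SD was 2.08 in the 21 and 0.41 in the 45. The lowest signal called well above background moved with age and row. It was -7.75 to -7.39 at 7 days and -8.89 to -7.57 at 35 days. At 45 days it was -8.26 to -8.04 on the arrays of row 1 and -7.64 to -7.22 on those of row 2. Its part in the features near background was not tested.

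**Figure D4:**
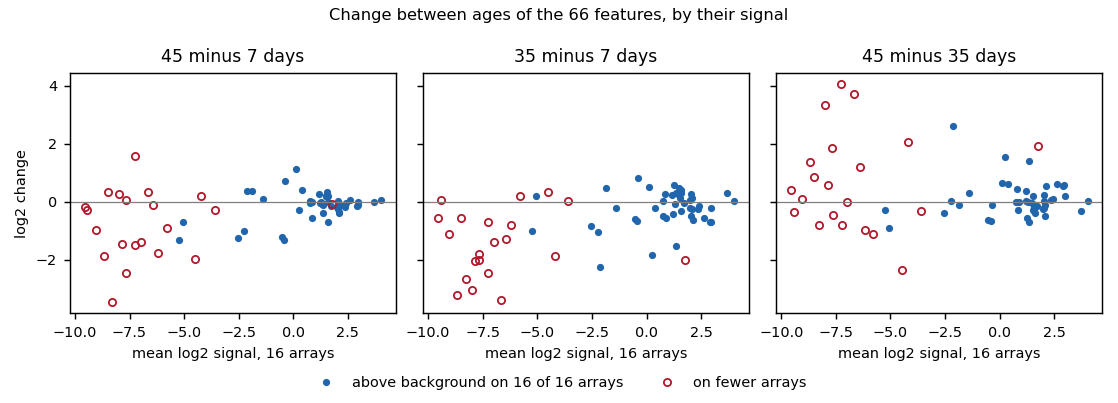
log2 difference of each of the 66 member features (y axis) against its mean log2 signal over the 16 arrays (x axis), for 45 minus 7, 35 minus 7 and 45 minus 35 days. Colours separate the 45 features above background on every array from the other 21. The median within-age SD is 2.08 in the 21 and 0.41 in the 45.

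Among the 45 features above background on all arrays, 2 had an unadjusted p under 0.05 at 45 against 7 days, where 9.36% of all such features did. A feature of dpr13 was 1.15 higher at 45 days and the feature of dpr17 lower. At 35 against 7 days 7 did (4 of dpr7, 2 of DIP-zeta and 1 of DIP-epsilon, all lower), against 15.3%. At 45 against 35 days 8 did (the 5 of dpr7, and 1 each of DIP-epsilon, dpr1 and dpr20), against 8.29%.

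DIP-gamma, found in some MNs and in neurons that photoreceptors contact, binds dpr11, dpr15, dpr16 and dpr17. Its ligand dpr17 had 1 feature, above background on all arrays, and its mean was lowest at 45 days. It had 1.78, 2.21, 1.63, 1.90 and 2.23 at 7 days and 2.00, 2.08, 1.95, 0.77 and 1.41 at 35 days. The 45-day values ran from 0.83 through a median of 1.26 to 1.70, and 5 of the 6 were below every 7-day array.

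For dpr17 the difference at 45 against 7 days was -0.69 ± 0.24 (SE; 95% interval -1.22 to -0.17), with limma p = 0.0145, adjusted p = 0.455 and an exact permutation p of 0.013. It was -0.86 on slide 1, -0.54 on slide 2 and -0.59 within row 2. DIP-gamma itself had 1.84, 1.64, 1.20, 1.31 and 0.85 at 7 days, 1.54, 1.22, 1.25, 1.21 and 1.20 at 35 days, and values from 0.70 through a median of 1.31 to 1.58 at 45 days. The ages overlapped, with a difference of -0.09 at 45 against 7 days (95% interval -0.61 to 0.43, limma adjusted p = 0.906, exact permutation p = 0.671).

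Growth of the larval NMJ is where dpr11 is known as the partner of DIP-gamma. It had 0.04, -0.07, -0.81, 0.57 and -1.26 at 7 days, -0.28, -0.09, -0.68, -0.54 and 0.19 at 35 days, and ran from -1.11 through a median of -0.19 to 0.49 at 45 days. The ages overlapped fully, with a difference of 0.05 at 45 against 7 days (95% interval -0.79 to 0.88, limma adjusted p = 0.979, exact permutation p = 0.905).

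Muscle innervation in larvae and adult legs depends on DIP-alpha of MNs, with dpr10 in muscle. DIP-alpha had 2.33, 2.04, 2.56, 1.70 and 2.90 at 7 days, 2.23, 2.07, 2.38, 1.43 and 2.16 at 35 days, and ran from 1.51 through a median of 1.93 to 2.29 at 45 days. The values overlapped, with a difference of -0.37 at 45 against 7 days (95% interval -0.94 to 0.20, limma adjusted p = 0.66, exact permutation p = 0.147).

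The ligand dpr10 had 0.37, 0.94, 1.07, 0.77 and 0.46 at 7 days, 0.37, 0.87, 0.65, 0.50 and 1.44 at 35 days, and ran from -0.03 through a median of 0.73 to 1.65 at 45 days. The ages overlapped, with 45-day replicates on both sides of the rest. Its difference at 45 against 7 days was 0.04 (95% interval -0.67 to 0.75, limma adjusted p = 0.979, exact permutation p = 0.905). The muscle markers had a median difference of 1.11 at 45 against 7 days, with 7 of the 8 positive. Of them, 3 had an unadjusted p under 0.05, where 9.07% of all genes did, and none was called. The cell source of the dpr10 signal was not tested.

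The second ligand, dpr6, had 1.40, 1.64, 1.17, 0.88 and 1.55 at 7 days, 1.95, 2.08, 2.19, 0.43 and 2.23 at 35 days, and ran from 0.98 through a median of 1.53 to 2.23 at 45 days. All 35-day arrays but replicate 4 were above every 7-day array. The difference at 35 against 7 days was 0.45 (95% interval -0.37 to 1.26, limma adjusted p = 0.507, exact permutation p = 0.262). Without that replicate it was 0.78 with a limma adjusted p of 0.0449, which is under 2-fold and so not a call. That replicate was singled out here after its value was seen. The share of all genes with such an adjusted p in that fit is not given.

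**Figure D5:**
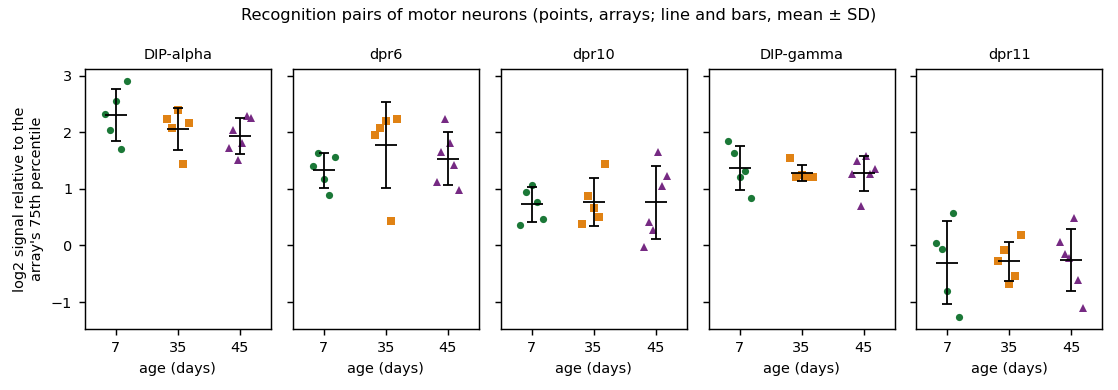
log2 signal (y axis, relative to the 75th percentile of the array) by age in days (x axis) of DIP-alpha with its ligands dpr6 and dpr10, and of DIP-gamma with its ligand dpr11. Points are arrays and bars are mean ± SD. The differences at 45 against 7 days are -0.37, 0.21, 0.04, -0.09 and 0.05.

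DIP-epsilon and DIP-zeta share the ligands dpr13, dpr14, dpr18, dpr19 and dpr20. The ligand dpr20 had 1.80, 2.29, 2.09, 2.44 and 2.20 at 7 days, 2.44, 1.93, 1.97, 2.64 and 2.53 at 35 days, and ran from 1.50 through a median of 1.83 to 2.06 at 45 days. The 45-day arrays had the lowest mean, with overlap. The difference was -0.49 ± 0.21 at 45 against 35 days (SE; limma adjusted p = 0.531, exact permutation p = 0.0303) and -0.36 ± 0.19 at 45 against 7 days (limma adjusted p = 0.599, exact permutation p = 0.0368).

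DIP-zeta, chosen after its values were seen because its arrays did not overlap at 35 against 7 days, had -4.12, -3.61, -3.27, -3.34 and -3.55 at 35 days, against -3.00, -3.23, -2.73, -2.99 and -2.91 at 7 days. The difference was -0.60 ± 0.22 (SE), and -0.55 and -0.56 within the slides. That mean covers 3 features, 1 of them above background on no array. The other 2 differed by -0.65 and -0.58. The brightest overlapped, with 0.03 to 0.47 at 7 days and -0.81 to 0.12 at 35 days. For the gene mean of DIP-zeta, the later comparison was as follows. At 45 against 7 days it was -0.90, but the 45-day replicate 4 lay at -5.87, and without it the difference was -0.50.

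A feature of DIP-epsilon, likewise chosen after its values were seen, was lower at 35 days on some arrays. Its 7-day arrays averaged -1.56, its 35-day arrays -3.81 and its 45-day arrays -1.20, a difference of 2.61 at 45 against 35 days. On slide 1 the 45-day mean was 1.01 higher and on slide 2 4.87 higher, and the 35-day replicates 4 and 5, both of slide 2, had -5.70 and -5.95.

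The remaining members had no unadjusted p under 0.05 at 45 against 7 days, and the differences below are of that comparison. Of the ligands of DIP-epsilon and DIP-zeta, dpr18 differed by -0.18 (95% interval -0.63 to 0.27), dpr19 by 0.34 (95% interval -0.09 to 0.77), dpr13 by -0.12 (95% interval -1.65 to 1.41) and dpr14 by -0.05 (95% interval -1.23 to 1.13). The intervals were narrow for dpr18 and dpr19, which have 1 feature each, above background on all arrays, and wide for dpr13 and dpr14. In the DIP-eta, DIP-theta and DIP-iota group, dpr1, named for the loss of salt-aversive proboscis extension, differed by -0.51, dpr2 by -0.0045, dpr3 by -0.97 and dpr5 by -0.18. The DIP-beta ligand dpr8 differed by 0.05, and its 35-day mean rested on replicate 1 at -1.34, where the other 35-day arrays had 1.57 to 1.97. DIP-kappa, the only member measured outside the binding groups, differed by 0.18, and the DIP-gamma ligand dpr15 by -0.04. Leaving out 45-day replicate 4 gave -0.48 in place of -1.23 for dpr16, -0.44 in place of -0.82 for DIP-theta and -0.36 in place of -0.80 for DIP-beta. These are gene means, and some include features not above background on every array. The 1 feature above background on all arrays differed by -0.16 for dpr3, -0.16 for DIP-theta and 0.38 for DIP-beta. The 2 such features of dpr13 differed by 0.05 and 1.15.

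DIP-eta and DIP-iota, the receptors that were not above background on all arrays, have no measured age difference. The feature of DIP-eta was above background on 3 of 5 arrays at 7 days, 2 of 5 at 35 days and 2 of 6 at 45 days. The 2 features of DIP-iota were above background on 3 and 1 of 5 arrays at 7 days, on 1 of 5 each at 35 days and on 4 of 6 each at 45 days.

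The binding groups were counted by the sign of their differences at 45 against 7 days. In the DIP-eta, DIP-theta and DIP-iota group 1 of 9 was positive and 8 were negative. The positive was DIP-iota, and DIP-eta was among the negatives, though neither has a measured age difference. The DIP-epsilon and DIP-zeta group had 2 positive and 5 negative, the DIP-gamma group 1 and 4. DIP-alpha with dpr6 and dpr10 had 2 positive and 1 negative, DIP-beta with dpr8 and dpr9 had 1 and 2, and DIP-delta with dpr12 had 1 of each. In the DIP-eta, DIP-theta and DIP-iota group, dpr4 alone had an unadjusted p under 0.05 at that comparison. Over all genes 4411 of 12946 were positive. All of these are signs of gene means. For DIP-beta, counted as negative, the 1 feature above background on all arrays differed by 0.38.

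Features of one member did not always share a sign. In 12 members with several features above background on every array, all such features had the same sign in 8 at 45 against 7 days, in 7 at 35 against 7 days and in 5 at 45 against 35 days.

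Other recognition families of MNs were set beside the network. The Beat proteins and their Side ligands guide motor axons during development. Of 13 Beat genes measured (of 14), 4 differences were positive and 9 negative at 45 against 7 days, with 2 unadjusted p under 0.05 (beat-IIb, -2.35, and beat-Va, -1.38). For beat-IIb, only 11 arrays had a feature above background, so the size of its difference is not measured. Of the 8 Side genes, 1 was positive and 7 negative, with 1 unadjusted p under 0.05 (side-III, -1.53), and at 35 against 7 days all 8 were negative. Over all genes, 9.07% had such a p at 45 against 7 days and 8535 of 12946 differences were negative, and at 35 against 7 days 8752 were negative. Among 5 related or bound proteins, Lac, an immunoglobulin protein of cell junctions, differed by 0.83 at 45 against 7 days (limma adjusted p = 0.528), and klg, a neuronal adhesion protein, by -0.09. None of these 26 genes was called in any comparison.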

How the data were processed

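Each array was scanned by the authors with Agilent Feature Extraction, and the deposited intensity per spot is background-adjusted and not normalized between arrays. The authors also deposited a table of log2 values, scaled by the 75th percentile of each array and centred on the median of each feature. Its columns lie within a median absolute difference of 0.0053 of the values used here. The genome build is not used here, and no coordinates or sequences are given.

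Control spots (1319 of 62976) and outlier spots were left out, log2 intensity was taken, spots of a feature were averaged and the 75th percentile over features was subtracted. Outlier spots left DIP-iota, dpr4 and dpr8 with 1 feature missing on 1 array each. Symbols came from RefSeq accessions (33174 of 33911 features with an accession). Pairs of ages were fitted on their own arrays with limma 3.58.1 in R 4.3.3, the F test on all 16. Exact permutation tests were two-sided and unadjusted. Scripts were tested on simulated data. The number of arrays limits the precision.

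Values on each 7-day and 35-day array, with the lowest, median and highest at 45 days, are given for the 6 members with the lowest F-test p, for any member called, and for 5 members known at the neuromuscular junction. The members and lists were chosen with earlier results of these data known. The alternatives were other scalings, background and outlier rules, feature rules, slide, row and replicate terms, array weights and leaving out each array.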

Additional observations from a re-analysis of the deposited data

Results flagged for a closer look

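In 11 of 90 groups (each of the 30 genes at each of the 3 ages), 1 array stood apart from the others of its age by Dixon's test at 95%. Chance gives about 5% of groups. At 45 days, replicate 4 stood low in DIP-zeta at -5.87 (others -3.82 to -3.18) and in dpr16 at -6.79 (others -3.36 to -1.60), and replicate 3 stood low in DIP-gamma at 0.70 (others 1.26 to 1.58). At 35 days, replicate 3 stood low in DIP-beta at -4.89 (others -2.57 to -1.68) and high in DIP-iota at -5.57 (others -10.97 to -9.58). Replicate 1 of that age stood high in DIP-gamma at 1.54 (others 1.20 to 1.25) and low in dpr8 at -1.34 (others 1.57 to 1.97). Replicate 2 stood high in dpr15 at 1.37 (others 0.73 to 0.87), and replicate 4 stood low in dpr6 at 0.43 (others 1.95 to 2.23). At 7 days, replicate 5 stood low in dpr13 at -4.49 (others -1.87 to -0.995) and in dpr14 at -2.99 (others -1.07 to -0.32).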

How the results depend on the processing

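No member was called in the fits of the report, and some alternatives called a few. At 35 against 7 days, 1 member feature passed with quantile normalization, with scaling by the median, with only features above background and with variance trend and robust moderation, 3 passed with array weights and 4 with dim signals floored. All of these sets held the dimmest feature of dpr7, with features of dpr12, dpr9 or dpr4 in the larger ones. Of genes, 2 passed with dim signals floored (dpr7, -1.06, and dpr9, -1.49, both limma adjusted p = 0.0427) and 1 with array weights (dpr7, -1.07). Over the 3 ages, 2 features passed with only features above background and with variance trend and robust moderation, 3 with array weights and 1 with slide as a block. Leaving out 1 array gave 0 to 1 gene at 35 against 7 days (1 without 35-day replicate 4), 0 to 3 features there (3 without 35-day replicate 4, 1 without 7-day replicate 5), 0 to 1 feature at 45 against 7 days (dpr12, without 7-day replicate 1) and 0 to 3 over the 3 ages (3 without 35-day replicate 4, 1 without 45-day replicate 3). The cause was not tested. The shares of all genes and features called under these alternatives are not given here. The counts thus do not set the members apart from other genes.

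The median difference of the network was 0.17 at 45 against 7 days and -0.040 at 35 against 7 days with scaling by the median, and -0.058 at 35 against 7 days with only features above background on all arrays averaged, an alternative added after seeing the data, as was normexp on the median signal. Some differences changed sign, and at 35 against 7 days dpr4, with an unadjusted p under 0.05, was among those that turned with only features above background. DIP-gamma at 45 against 7 days was 0.23 with scaling by the median, 0.28 within slide 2, and -0.22 to 0.027 with 1 array left out. For dpr11 it was -0.19 with row as a term and within row 2, -0.049 with array weights, -0.092 within slide 1 and -0.19 to 0.26 with 1 array left out. For dpr10 at 35 against 7 days it was -0.022 within slide 1 and -0.12 to 0.14 with 1 array left out. For dpr12 at 45 against 7 days the brightest feature gave 0.073. Counting a member as detected only with every feature above background gave 15.

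Same-numbered replicates of different ages did not deviate together (correlation -0.06 to 0.13). No sign of pairing by number was thus seen, which does not exclude one. With the replicate block no member was called, and the medians were -0.28 at 45 against 7 days, -0.39 at 35 against 7 days and -0.11 at 45 against 35 days. A planned normexp correction on the mean signal was not run, since the scanner columns used here hold the median signal. Signal over background limits DIP-eta, DIP-iota and most of the 21 features not above background on all arrays.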
